A study of Rattus norvegicus with 6 samples.

Results

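The miR-23, miR-27 and miR-24 miRNAs come from a pair of small gene clusters that are best known for their part in the formation and repair of blood vessels. Of the 867 miRNAs listed for rat serum exosomes, 8 belong to these clusters and all 8 had reads. They were chosen by name: 4 come from the a cluster alone (miR-23a-3p, miR-27a-3p, miR-27a-5p and miR-24-2-5p), 3 from the b cluster alone (miR-23b-3p, miR-27b-3p and miR-27b-5p), and 1, miR-24-3p, is made by both.

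Exosomes are vesicles shed by cells that carry RNA in the blood. Here they came from the serum of male Sprague-Dawley rats aged 6 to 8 weeks on a normal diet. NXT-Exo (5 libraries) came from rats gavaged with 1000 mg/kg/d of Naoxintong Capsule (NXT), a Chinese herbal preparation for cardiovascular and cerebrovascular disease, and Ctl-Exo (1 library, replicate 5) from rats gavaged with 5 mL/kg/d of saline. The sample titles give 7 days of dosing in every library, as do the authors' methods for both groups. The treatment field instead lists 7, 8, 9, 10 and 11 days for NXT-Exo 1 to 5 in turn, and 11 days for Ctl-Exo 5. In that field the days rise with the replicate number. The labels count 10 rats per group and do not say whether a library holds 1 rat or a pool. The p-values below therefore take libraries, not rats, as units. Those of the group comparison use the spread among the 5 NXT-Exo libraries alone. Those of the a to b ratios depend here only on all 6 libraries lying on the same side. Columns headed with the names of further Ctl-Exo libraries match no sample label at hand and were not used here, so every comparison of the groups rests on 1 control library. No vessel or endothelial cell was analysed here.

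A miRNA is cut from a hairpin whose 2 arms give a 5p and a 3p product, and it finds its target mRNAs mainly through its seed, bases 2 to 8. The miR-23, miR-27 and miR-24 hairpins of a cluster lie side by side and are transcribed together, the a cluster between genes and the b cluster inside the gene of the aminopeptidase Aopep. In endothelial cells miR-23 and miR-27 are known to favour sprouting by repressing Sprouty and semaphorin genes, whereas miR-24 is known to restrain it. miR-23a is also a customary reference in serum tests for red cell lysis, because its serum level changes little when red cells release their miR-451.

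In the rat assembly GRCr8, RefSeq places Mir23a, Mir27a and Mir24-2 within 389 bases of the minus strand of chromosome 19 (chr19:40859455-40859843), a span that overlaps 0 protein-coding genes. Mir23b, Mir27b and Mir24-1 lie within 814 bases of the minus strand of chromosome 17 (chr17:1818669-1819482), a span that overlaps 2 protein-coding genes, Aopep, which holds all of it, and Fancc, which meets it at 1 end. The listed sequences of all 8 members are identical to the RefSeq mature miRNAs and are printed here as DNA, with the seed in capitals, because the 3p products of miR-23 and of miR-27 in the a and b clusters can be told apart only near their 3′ end.
rno-miR-23a-3p: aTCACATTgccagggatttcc
rno-miR-23b-3p: aTCACATTgccagggattacc
rno-miR-27a-3p: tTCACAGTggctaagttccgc
rno-miR-27b-3p: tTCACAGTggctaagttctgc
rno-miR-24-3p: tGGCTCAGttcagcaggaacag
rno-miR-24-2-5p: gTGCCTACtgagctgaaacagt
rno-miR-27a-5p: aGGGCTTAgctgcttgtgagca
rno-miR-27b-5p: aGAGCTTAgctgattggtgaacag

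The 8 sequences carry 6 seeds. miR-23a-3p and miR-23b-3p share a seed and differ at 1 of 21 bases, T19A, counted from the 5′ end with the base of the a member first. miR-27a-3p and miR-27b-3p also share a seed and differ by C19T alone among 21 bases. In both pairs the first 18 bases are identical, so a read that ends there, or is misread at position 19, could be counted for the wrong member, and how often this happened was not tested. The seeds of miR-23 and miR-27 differ from each other by 1 base, T7G, counted from the first base of the seed. The 5p products of miR-27a and miR-27b carry different seeds.

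miR-23a-3p was the most abundant member in every library and miR-27b-5p the least. Levels are given as counts per unit of scaled library (CPM, reads of a miRNA divided by the TMM-scaled total of listed reads and multiplied by 1e+06, 1 value per mature sequence with no division by length, since the members are all 21 to 24 bases long). The 5 libraries of NXT-Exo held 1168686 to 3781718 listed reads and Ctl-Exo 5 held 1890463, so that a single read stood for 0.256 to 0.746 CPM in NXT-Exo, against 0.567 CPM in Ctl-Exo 5. Together the 8 members took 5.19% to 7.29% of the listed reads in NXT-Exo against 6.64% in Ctl-Exo 5. Their sum was 62398 ± 6918 CPM (SD, n = 5) in NXT-Exo against 71156 CPM in Ctl-Exo 5, with 4 of 5 NXT-Exo libraries below Ctl-Exo 5. Scaled to the listed total alone, 3 of 5 were below it. These are shares of a mixture, so fewer vesicles from a cell type and less of a miRNA per vesicle cannot be told apart.

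**Figure D1:**
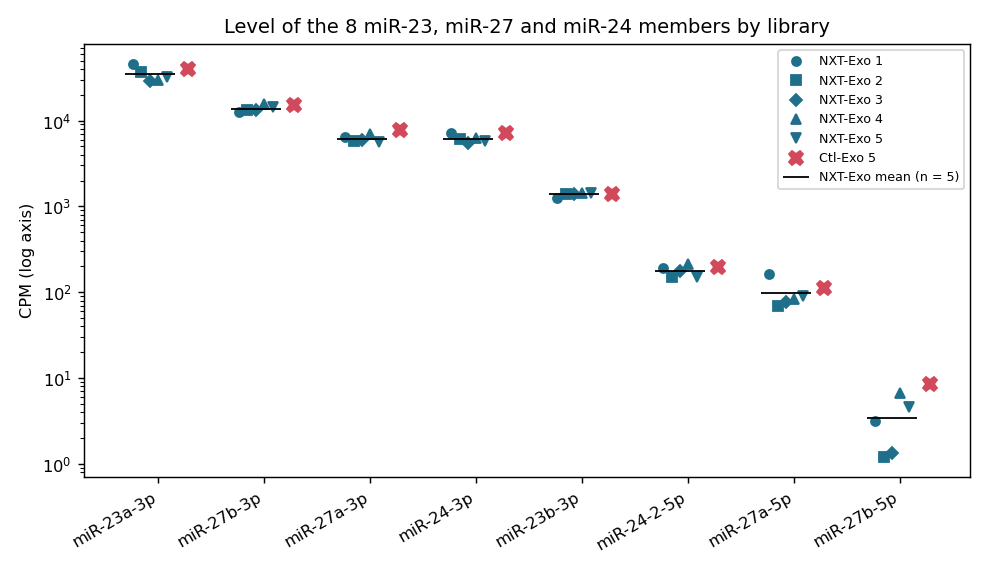
CPM of each member (log axis) in the 5 NXT-Exo libraries (blue, 1 marker shape per library), with their mean as a line, and in Ctl-Exo 5 (red cross). The level falls from a mean of 34647 CPM for miR-23a-3p to 3.40 CPM for miR-27b-5p, and Ctl-Exo 5 lies above all 5 NXT-Exo libraries for miR-27a-3p and miR-27b-5p.

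rno-miR-23a-3p, the a member of the miR-23 pair, stood at 45943, 36776, 28836, 29304 and 32375 CPM in NXT-Exo 1 to 5 and at 39645 CPM in Ctl-Exo 5. NXT-Exo 1 was the highest library and Ctl-Exo 5 the next, so Ctl-Exo 5 lay inside the NXT-Exo range. With a mean of 34647 ± 7064 CPM (SD, n = 5) in NXT-Exo it ranked 7 among all listed miRNAs by mean CPM. Its coefficient of variation among the NXT-Exo libraries, 20.4%, was the largest of the 5 members with 1000 or more reads on average.

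rno-miR-23b-3p, which has the same seed, stood at 1237, 1405, 1406, 1441 and 1416 CPM in NXT-Exo 1 to 5 and at 1376 CPM in Ctl-Exo 5. NXT-Exo 1, the highest library for miR-23a-3p, was the lowest for miR-23b-3p, and the other 4 NXT-Exo libraries were close to one another and to Ctl-Exo 5. Its mean of 1381 ± 81.8 CPM (SD, n = 5) came with a coefficient of variation of 5.92%. Of the 99 miRNAs with a mean of 1000 or more reads, whose median coefficient was 13.9%, it stood at position 5 from the steadiest and miR-23a-3p at position 82.

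rno-miR-27b-3p, known from work on lipid metabolism and endothelial tip cells, was second among the members. By mean CPM over all 6 libraries it ranked 12 of all listed miRNAs. It stood at 12456, 13321, 13330, 15657 and 14183 CPM in NXT-Exo 1 to 5 and at 14970 CPM in Ctl-Exo 5, which was inside the NXT-Exo range. NXT-Exo 4 was the highest and NXT-Exo 1 the lowest, with a mean of 13789 ± 1209 CPM (SD, n = 5).

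rno-miR-27a-3p stood at 6484, 5806, 5961, 7035 and 5556 CPM in NXT-Exo 1 to 5 and at 7786 CPM in Ctl-Exo 5. Ctl-Exo 5 was above all 5 NXT-Exo libraries, with NXT-Exo 4 the nearest. This order rests on the scaling, since with the listed total alone NXT-Exo 4 (8072 CPM) was above Ctl-Exo 5 (7263 CPM), while median-of-ratios factors again left all 5 below it. The NXT-Exo mean was 6168 ± 592 CPM (SD, n = 5).

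rno-miR-24-3p, the product of both clusters, stood at 7087, 6096, 5442, 6224 and 5830 CPM in NXT-Exo 1 to 5 and at 7063 CPM in Ctl-Exo 5. NXT-Exo 1 and Ctl-Exo 5 were nearly level and the other 4 libraries were lower. Its mean, 6136 ± 610 CPM (SD, n = 5), and that of miR-27a-3p differed by far less than the spread of either. By mean CPM over all 6 libraries these neighbours ranked 27 and 26 of all listed miRNAs. The reads do not show which of the clusters a copy of miR-24-3p came from.

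The other 3 members are 5p arms of their hairpins and had the lowest levels of the 8. rno-miR-24-2-5p, which comes from the a cluster alone, stood at 194, 152, 175, 210 and 151 CPM in NXT-Exo 1 to 5 and at 197 CPM in Ctl-Exo 5, inside the NXT-Exo range. rno-miR-27a-5p stood at 165, 68.7, 77.6, 83.5 and 91.3 CPM in NXT-Exo 1 to 5 and at 112 CPM in Ctl-Exo 5. Its value in NXT-Exo 1 was far above those of the other 4, and without it Ctl-Exo 5 would lie above the NXT-Exo range. rno-miR-27b-5p had 9, 4, 3, 9 and 18 reads in NXT-Exo 1 to 5 and 15 reads in Ctl-Exo 5, which is 3.40 ± 2.33 CPM (SD, n = 5) against 8.51 CPM. The Wilson 95% interval of that Ctl-Exo 5 level, which covers counting error only, runs from 5.15 to 14.0 CPM and takes in the highest NXT-Exo value, 6.71 CPM in NXT-Exo 4.

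The a and b clusters did not have equal numbers of reads, and the order was opposite in the miR-23 and miR-27 pairs. Both reads of a ratio come from the same library, so the ratio does not depend on library scaling. Whether both sequences of a pair are captured equally well in sequencing was not tested, so the ratios describe reads and not copies in the exosomes. miR-23a-3p had 37.1, 26.2, 20.5, 20.3 and 22.9 times the reads of miR-23b-3p in NXT-Exo 1 to 5 and 28.8 times in Ctl-Exo 5. The a member was in excess in 6 of 6 libraries, by 25.4-fold on average (mean log2 ratio 4.67 ± 0.33, SD, n = 6, exact two-sided sign-flip permutation test, p = 0.03125). For miR-27 the b member was in excess in 6 of 6 libraries, by 1.92, 2.29, 2.24, 2.23 and 2.55 times in NXT-Exo 1 to 5 and 1.92 times in Ctl-Exo 5. The mean log2 ratio of miR-27a-3p to miR-27b-3p was -1.13 ± 0.16 (SD, n = 6), an excess of 2.18-fold for the b member (exact two-sided permutation test, p = 0.03125).

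Summed over the miR-23 and miR-27 3p arms, the a cluster had 2.71 times the reads of the b cluster on average, with 3.83, 2.89, 2.36, 2.13 and 2.43 times in NXT-Exo 1 to 5 and 2.90 times in Ctl-Exo 5 (exact two-sided permutation test, p = 0.03125). miR-23a-3p made up most of that sum. The minor arms of miR-27 had the reverse order of the major ones: miR-27a-5p had 11.8 to 51.2 times the reads of miR-27b-5p in NXT-Exo against 12.7 times in Ctl-Exo 5, and exceeded it in 6 of 6 libraries (exact two-sided permutation test, p = 0.03125). After Benjamini-Hochberg adjustment over the 4 ratios each p-value was again 0.03125, the smallest that 6 libraries allow. The permutation test gives this value whenever all 6 libraries lie on the same side of 0, whatever the size of the ratio. Any 5 of the libraries cannot give less than 0.0625.

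**Figure D2:**
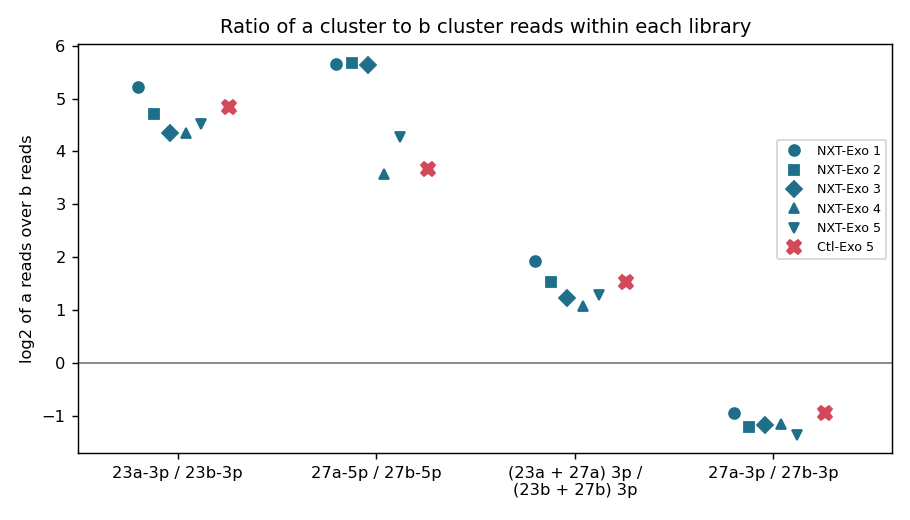
Log2 of the reads of the a member over the reads of the b member within each library, for 4 comparisons, with NXT-Exo in blue and Ctl-Exo 5 in red. Values above 0 mean more a reads. The miR-23 3p, miR-27 5p and summed ratios lie above 0 and the miR-27 3p ratio lies below 0 in all 6 libraries, and Ctl-Exo 5 lies inside the NXT-Exo range for each.

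None of these ratios set Ctl-Exo 5 apart from NXT-Exo. In NXT-Exo the mean log2 ratio was 4.63 ± 0.36 for miR-23a-3p to miR-23b-3p against 4.85 in Ctl-Exo 5, and -1.16 ± 0.15 for miR-27a-3p to miR-27b-3p against -0.94 (SD, n = 5). In both pairs 4 of 5 NXT-Exo libraries had a lower share of the a member than Ctl-Exo 5, and NXT-Exo 1 was higher for miR-23 and level with it for miR-27. No test was made, since 5 libraries against 1 cannot give a two-sided exact p below 0.333.

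The 3p arm exceeded the 5p arm for both miR-27 hairpins. miR-27a-3p had 39.3 to 84.3 times the reads of miR-27a-5p in NXT-Exo against 69.5 times in Ctl-Exo 5, and miR-24-3p, made by both clusters, had 29.5 to 40.1 times those of miR-24-2-5p, with 35.8 times in Ctl-Exo 5, so the arm ratio of the Mir24-2 hairpin alone is not known. For miR-27b the ratio was larger, from 2210 to 9912 in NXT-Exo against 1703 in Ctl-Exo 5, and rests on 3 to 18 reads of miR-27b-5p per library. The 5p arms of the miR-23 hairpins were rarer than the 3p arms too: miR-23a-5p had 57 reads in the 6 libraries (3.96 ± 1.97 CPM in NXT-Exo, SD, n = 5, and 3.97 CPM in Ctl-Exo 5) and miR-23b-5p had 24, with 0 in Ctl-Exo 5, where 3 reads would be 1.70 CPM. miR-24-1-5p was not among the listed miRNAs under that name.

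The authors' table also holds sequences named without the rat prefix that carry a member's seed. The most abundant are shown because each is a longer or altered form of 1 member and is counted apart from it.
miR-23-y: aTCACATTgccagggatttccaat
miR-27-y: tTCACAGTggctaagttccgaat
miR-23-y is the whole of miR-23a-3p with 3 more bases and had 2.51% of its reads (2.09% to 2.99% in NXT-Exo against 2.23% in Ctl-Exo 5). miR-27-y shares its first 20 bases with miR-27a-3p and had 4.25% of its reads (3.93% to 5.13% in NXT-Exo against 3.50% in Ctl-Exo 5, which was below all 5). miR-24-y, miR-27-z and miR-24-z had 0.778%, 0.176% and 0.119% of the reads of their nearest members, and miR-9985-z, which carries a member's seed but is equally near to more than 1 member, had 4 reads in all. Adding the longer forms to the nearest member left the mean log2 ratio of a to b at 4.70 for miR-23 and -1.07 for miR-27.

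The members of a cluster did not all keep a fixed ratio to each other. Over the 28 pairs of members, the ratio varied least between miR-23b-3p and miR-27b-3p, neighbours in the b cluster. miR-27b-3p had 9.48 to 10.9 times the reads of miR-23b-3p over the 6 libraries, and the log2 ratio had an SD of 0.09. Among all 4851 pairs of the 99 miRNAs with a mean of 1000 or more reads the median SD was 0.29, and 0.845% of pairs varied as little as this one or less. The pair was picked as the steadiest of 28, so this percentage only describes it and is no test. In the a cluster, miR-23a-3p had 4.17 to 7.09 times the reads of miR-27a-3p and the SD was 0.28, close to that median. miR-27a-3p varied less against miR-24-2-5p (SD 0.11) and miR-24-3p (SD 0.13), and miR-23a-3p varied least against miR-24-3p (SD 0.16). Some pairs across the clusters were steadier than miR-23a-3p and miR-27a-3p. Among them were miR-27a-3p with miR-27b-3p (SD 0.16) and miR-27b-3p with miR-24-2-5p (SD 0.19). Others were less steady, such as miR-23a-3p with miR-23b-3p (SD 0.33). A steady ratio therefore did not follow cluster membership alone. Pairs with miR-27b-5p had SDs of 0.995 to 1.13, at 3 to 18 reads per library. These SDs are descriptions over 6 libraries and were not tested.

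**Figure D3:**
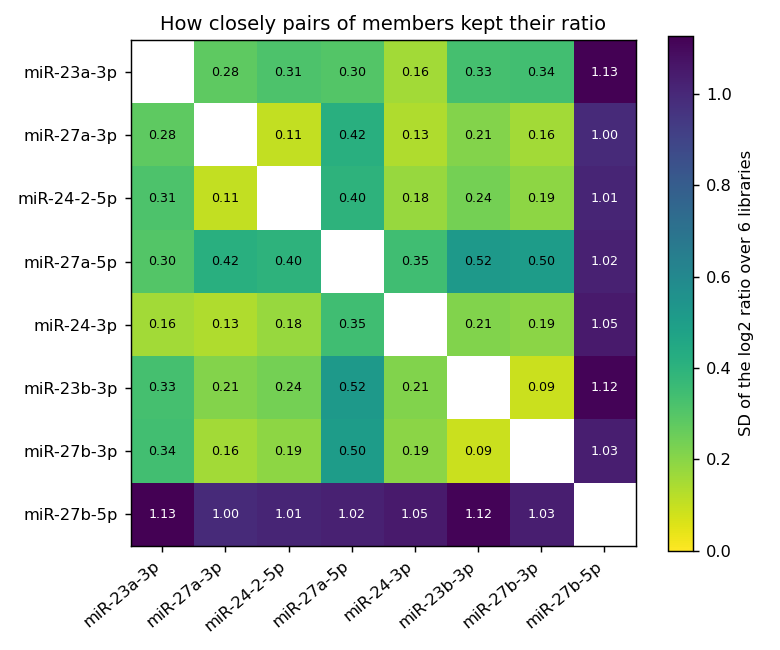
SD over the 6 libraries of the log2 ratio of reads for each of the 28 pairs of members, with a cluster members first and b cluster members last (yellow, steady ratio, dark blue, variable ratio). The pair miR-23b-3p and miR-27b-3p has the lowest SD (0.09), and all pairs with miR-27b-5p have the highest.

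Outside the families, the 3 miRNAs whose level followed the sum of the members most closely were miR-151-3p (SD of the log2 ratio 0.07 over 6 libraries), miR-744-x (0.08) and miR-191a-3p (0.08), of 219 miRNAs with a mean of 100 or more reads. miR-151-3p stood at 4458, 3829, 3346, 3222 and 3398 CPM in NXT-Exo 1 to 5 and at 3972 CPM in Ctl-Exo 5. As for miR-23a-3p, NXT-Exo 1 was its highest library and Ctl-Exo 5 the next.

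No member passed the test for a difference between NXT-Exo and Ctl-Exo 5. In the edgeR quasi-likelihood fit over 736 miRNAs with 10 or more reads in all, where the single Ctl-Exo library is assumed to vary like the NXT-Exo libraries, 0 of the 8 members and 0 of all 736 miRNAs (0% called) had an adjusted p under 0.05 and a change of at least 2-fold. At an unadjusted p under 0.05, 0 of the 8 members stood against 35 of 736 miRNAs (4.76%). DESeq2 likewise called 0 miRNAs, with 34 at an unadjusted p under 0.05. Ctl-Exo 5 lay above all 5 NXT-Exo libraries for 2 of the 8 members, miR-27a-3p and miR-27b-5p, against 138 of 736 miRNAs (18.8%), and below all 5 for 0 of the 8, against 107 of 736 (14.5%). The members' 2 of 8 is near that background.

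The fitted log2 fold change of NXT-Exo over Ctl-Exo 5 was -0.34 for miR-27a-3p (SE 0.22, 95% interval -0.80 to 0.12, edgeR adjusted p = 0.775). For miR-23a-3p it was -0.19 (SE 0.27, interval -0.76 to 0.37, edgeR adjusted p = 0.845) and for miR-24-3p it was -0.20 (SE 0.22, interval -0.67 to 0.26, edgeR adjusted p = 0.782). miR-27b-3p had -0.12 (interval -0.59 to 0.35) and miR-23b-3p 0.01 (interval -0.43 to 0.44). These intervals take the spread of NXT-Exo for the single Ctl-Exo library, so they set no limit on the difference between the groups. The intervals of miR-24-2-5p (-0.71 to 0.38) and miR-27a-5p (-0.997 to 0.60) took in 0 as well. For miR-27b-5p the estimate was -1.36 with an interval from -3.52 to 0.80, at a coefficient of variation of 68.5% in NXT-Exo, where counting error alone would give 37.8%.

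**Figure D4:**
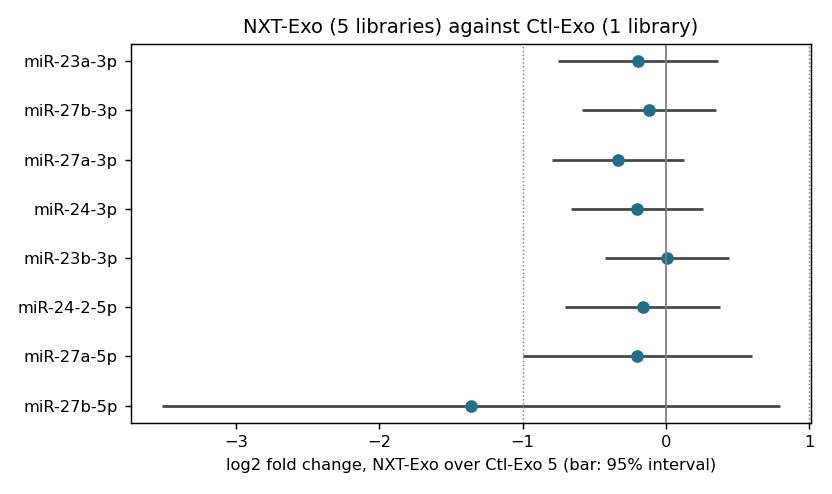
Fitted log2 fold change of NXT-Exo (5 libraries) over Ctl-Exo 5 (1 library) for each member, with its 95% interval as a bar and dotted lines at 2-fold in either direction. Every interval takes in 0, and that of miR-27b-5p, from -3.52 to 0.80, is the widest.

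Of the 8 estimates 7 were below 0, with a median of -0.20, beside a median of 0.05 over all 736 miRNAs, of which 390 were above and 346 below 0. Those 736 hold many rare miRNAs and were not matched to the members in abundance. Many abundant miRNAs outside the members were below 0 too, such as miR-191a-5p (-0.36) and miR-16-5p (-0.33), and some were above, such as miR-21-5p (0.24). A lean particular to the members is therefore not shown. With other scalings, filters and left-out libraries 5 to 8 of the members tested were below 0, and their median ran from -0.05 without NXT-Exo 2 to -0.23, with -0.08 for the listed total and -0.10 without NXT-Exo 4. The signs of miR-23b-3p, miR-27b-3p and miR-27a-5p turned in 4 of these estimates, from 3 fits. Without NXT-Exo 3 miR-23b-3p stood at -0.01, and without NXT-Exo 2 miR-27b-3p stood at 0.003 and miR-27a-5p at 0.01. Scaled to the listed total alone, miR-27b-3p stood at 0.01.

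Other miRNAs that are known for a part in vessel growth were read from a list of 20, of which 19 had reads and 18 could be tested. None passed the test by edgeR, 5 stood above and 13 below Ctl-Exo 5, and the median log2 fold change was -0.08. The endothelial miR-126a-3p, which supports vessel integrity, stood at 973, 803, 900, 984 and 914 CPM in NXT-Exo 1 to 5 and at 919 CPM in Ctl-Exo 5, inside the NXT-Exo range. Of the list, miR-15a-5p and miR-296-5p had 0 reads in Ctl-Exo 5 and at most 6.15 and 1.28 CPM in NXT-Exo, so no fold is given for them.

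Serum exosome preparations can carry miRNAs of blood cells and liver. The 5 red cell miRNAs (miR-451-5p, miR-486, miR-144-3p, miR-144-5p and miR-16-5p) summed to 166691 to 261300 CPM in NXT-Exo against 222834 CPM in Ctl-Exo 5, and 0 of the 5 had 0 reads in Ctl-Exo 5. miR-486 made up most of this sum in every library (216128 CPM in Ctl-Exo 5). The 5 platelet and white cell miRNAs summed to 21440 to 24373 CPM in NXT-Exo against 27792 CPM in Ctl-Exo 5, with all 5 estimates below 0 (median -0.27, smallest edgeR adjusted p = 0.775). None of them passed the test. Most of their sum was miR-142-5p (21752 CPM in Ctl-Exo 5). In NXT-Exo 5, miR-150-5p (3008 CPM) and miR-199a-3p (1080 CPM) were above their Ctl-Exo 5 levels (2900 and 1054 CPM). In NXT-Exo 4, miR-150-5p was above it too (2962 CPM). Of the 4 liver miRNAs 3 had reads, summed to 3224 to 18134 CPM in NXT-Exo against 2294 CPM in Ctl-Exo 5, and had estimates above 0 (smallest edgeR adjusted p = 0.775), with miR-802-5p at 0 reads in Ctl-Exo 5 and miR-122-3p lower in NXT-Exo 4 (5.22 CPM) than in Ctl-Exo 5 (7.94 CPM). Nearly all of the liver sum was miR-122-5p (2286 CPM in Ctl-Exo 5). The top of its range was NXT-Exo 1 alone, with 18085 CPM of miR-122-5p against 3216 to 6322 CPM in NXT-Exo 2 to 5. The part of these cell types in the members' levels was not tested.

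miR-451-5p, made in red cells, was read beside miR-23a-3p as is done for lysis. The log2 ratio of miR-451-5p to miR-23a-3p was -4.76, -4.02, -3.68, -3.25 and -4.06 in NXT-Exo 1 to 5 (mean -3.95 ± 0.56, SD, n = 5) and -4.11 in Ctl-Exo 5, so miR-23a-3p had 9.48 to 27.1 times the reads of miR-451-5p in NXT-Exo against 17.3 times in Ctl-Exo 5. Ctl-Exo 5 lay inside the NXT-Exo range and the means differed by 0.16, less than the SD. NXT-Exo 1, the library with the most miR-23a-3p, had the lowest ratio and NXT-Exo 4 the highest. Without NXT-Exo 4 the difference was -0.02, and with miR-23b-3p as the reference it was -0.06. The reference itself varied, since miR-23a-3p had a coefficient of variation of 20.4% among the NXT-Exo libraries. The SD of the log2 ratio in NXT-Exo was 0.56 with miR-23a-3p, 0.39 with miR-24-3p and 0.26 with miR-23b-3p as the reference.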

How the data were processed

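Small RNA of serum exosomes was sequenced with TruSeq small RNA libraries on a HiSeq 2500. Per the labels, ACGT101-miR removed adapter dimers, low-complexity reads, other RNA families and repeats, and the submitters' processing notes name the build Rnor_6.0. The aligner and the miRNA database release are not given in the sources used here. The authors deposited whole-number read counts per miRNA sequence and library, which were used as deposited. The 6 TPM columns of these libraries were not used here, nor were 8 further columns of counts and TPM headed with the names of other Ctl-Exo libraries, which match no sample label at hand. Ctl-Exo is therefore 1 library here and not all of the control data in the table. Sequences and GRCr8 positions are from RefSeq.

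Groups came from the sample labels. miRNAs with 10 or more reads over the 6 libraries were fitted with edgeR 4.0.16 (TMM, quasi-likelihood test, Benjamini-Hochberg) in R 4.3.3, and DESeq2 1.42.0 was an alternative. A call needed an adjusted p under 0.05 and a 2-fold change. The a to b ratios were log2 of reads with 0.5 added, tested against 0 by sign flips of the libraries. Python 3.11.15, numpy 2.4.6, pandas 2.3.3, scipy 1.17.1 and matplotlib 3.10.9 were used. The fit was run on simulated counts, and the ratio test on small sets of values with known answers. All pairs of libraries differed by more than counting noise (chi-square per degree of freedom 45.5 to 320.9 over 15 pairs). CPM values are relative to the TMM-scaled total of listed miRNAs. A change in an abundant miRNA can move others as far as that scaling does not offset it.

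The members and lists were chosen with earlier results of these data known. The miRNAs named were the 8 members, the other arms of their hairpins, miR-451-5p, rows sharing a member's seed, the 3 miRNAs most like the members' sum, and fixed lists of vessel, blood cell, liver and endothelial miRNAs.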

Additional observations from a re-analysis of the deposited data

Results flagged for a closer look

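In 2 of 13 series of 5 NXT-Exo values, 1 library stood apart by Dixon's ratio of its gap to the range (critical value 0.71, which chance exceeds in about 1 of 20 series). miR-23b-3p was low in NXT-Exo 1 (1237 CPM against 1405 to 1441 CPM in the other 4, ratio 0.823). miR-27a-5p was high in the same library (165 CPM against 68.7 to 91.3 CPM, ratio 0.765).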

How the results depend on the processing

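edgeR called 0 miRNAs under each scaling, filter and left-out NXT-Exo library tried, and DESeq2, run once with the same filter and all libraries, called 0. The number at an unadjusted p under 0.05 ran from 24 to 53. Of 79 fold changes of members under alternatives 4 changed sign, each to within 0.015 of 0: miR-23b-3p without NXT-Exo 3 (-0.0098), miR-27b-3p without NXT-Exo 2 (0.0034) and with the listed total (0.012), and miR-27a-5p without NXT-Exo 2 (0.015), and the cause was not tested. With a library left out these ran from -0.0098 to 0.11, from -0.11 to 0.0034 and from -0.41 to 0.015. The median of all miRNAs shifted by up to 0.15 (no filter), with 0.12 for the listed total and 0.10 without NXT-Exo 4. The a to b ratios kept their direction with 1 library left out at a time, Ctl-Exo 5 included, with mean log2 ratios of 4.56 to 4.73 for miR-23, -1.16 to -1.08 for miR-27, 4.56 to 4.98 for the miR-27 5p arms and 1.34 to 1.51 for the sums, and with the NXT-Exo libraries alone (4.63, -1.16, 4.96 and 1.42) or 1 read added in place of 0.5. With 5 libraries the smallest exact p is 0.0625, so none could pass. The miR-451-5p to miR-23a-3p difference ran from -0.02 to 0.36 with a library left out. No paired analysis was possible because replicate number 5 is the only one that both groups hold. Depth limits miR-27b-5p most, with 3 to 18 reads per library.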
